A study of Mus musculus with 12 samples.

Results

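The respiratory chain genes were followed here across the 4 groups of a study of fibro-adipogenic progenitors, the Pdgfra-expressing mesenchymal cells of the tissue around muscle fibres. Members were the protein-coding rows of the deposited count table whose symbols name a subunit of complexes I to V, namely Ndufa, Ndufb, Ndufc, Ndufs, Ndufv, Sdha to Sdhd, Uqcr, Cox4 to Cox8 and Atp5 genes, together with the protein-coding genes of the mitochondrial genome. The rule used symbols and annotation only, and no measured value. It found 100 of the 54100 rows, 87 from the nucleus and 13 from the mitochondrial genome. Atp5o has 2 rows with different identifiers, and the second held 0 counts in all libraries.

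Progenitors were sorted from plantaris muscle after sham treatment or overload, a mechanical load that makes the muscle grow. The control mice carried Pdgfra-CreERT2, and the cdKO mice carried Pdgfra-CreERT2 with floxed Yap1 and floxed Taz (gene symbol Wwtr1), so that both genotypes share the Cre driver and deletion is limited to cells that express it. Sham and overload in control and in cdKO make 4 groups of 3 libraries, and each library came from 1000 sorted cells. The sources used here do not give the age of the mice, the time after surgery or the tamoxifen schedule, and nothing says whether the libraries of a group came from separate animals, so p-values measure only how far these libraries spread, and that spread may be technical.

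The chain passes electrons from NADH (complex I) and succinate (complex II) through complexes III and IV to oxygen, and complex V uses the resulting proton gradient to make ATP. Complex II is encoded entirely in the nucleus, whereas the other complexes combine nuclear subunits with a small core made inside the mitochondrion from its own genome. Progenitors of resting muscle divide rarely, and they are known to proliferate and to signal to muscle stem cells when the muscle is loaded.

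Library totals ranged from 336437 to 1564581 counts. Values are given as counts-per-million of all counts in the library (CPM), and 3 counts, taken as the lowest level that can be told from 0, correspond to between 1.92 and 8.92 CPM. The summed CPM of 12 progenitor markers was 54736 to 89574.5 in every library, and Pdgfra itself ranged from 242 to 847 CPM. Under overload 3 of the 12 rose and 6 fell in control, and 4 rose and 4 fell in cdKO. Dcn, a small matrix proteoglycan, fell from a mean of 24671 to 5159 CPM in control and from 20162 to 7372 CPM in cdKO. Col3a1, a fibrillar collagen, rose from 12120 to 36494 CPM in control and from 15725 to 42298 CPM in cdKO. Wwtr1, targeted in cdKO mice, averaged 113 CPM in control sham and 32.1 CPM in cdKO sham, and 139 CPM in control overload and 19.1 CPM in cdKO overload. Yap1 averaged 92.6 and 59.5 CPM in the sham groups and 58.5 and 30.2 CPM in the overload groups, a difference that did not pass the test, and whether the counted ends of either transcript lie in the deleted part is not given. On the first principal component of all tested genes, which held 50.8% of the variance, sham libraries lay between -30.7 and -23.0. Overload libraries lay between 6.64 and 45.7, with cdKO overload 2 (6.64) and control overload 1 (14.3) nearest to sham. The libraries are bulk samples, so fewer cells of a type and less RNA per cell cannot be told apart.

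Of the 100 members, 84 passed the filter on low counts and were tested, 71 nuclear and 13 mitochondrial. The 16 that did not pass were Ndufs3, Ndufs5, Ndufs8, Uqcr11, Uqcrc2, Cox4i2, Cox5a, Cox5b-ps, Cox6a2, Cox6b2, Cox7a1, Cox7b2, Cox8b, Cox8c, Atp5g2 and the second Atp5o row. By complex, the tested nuclear members were 33 of 36 for complex I, 4 of 4 for complex II, 6 of 8 for complex III, 12 of 21 for complex IV (with Ndufa4 and Ndufa4l2, which belong to it) and 16 of 18 for complex V. "Rose" and "fell" are used for an adjusted p under 0.05 in edgeR's quasi-likelihood test, adjusted by Benjamini-Hochberg over all 8161 genes tested.

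Promoter sequence is shown for 3 nuclear members that rose under overload and differ in the motifs they hold, a choice made after the matches were seen. Of 86 nuclear symbols, 68 matched RefSeq promoters (GRCm38.p6), giving 73 windows of 250 bases before a transcription start. Capitals mark CCGGAAG (an ETS-factor core, the family that includes GABP) or TGCGCA (only a part of the NRF1 site), searched on both strands. Only exact matches of these letters were marked, so other forms of either site may lie unmarked. The Cox5b window lies at chr1:36691237-36691486 on the plus strand, the Cox7b window at chrX:106015450-106015699 on the plus strand, and the Cox6a1 window at chr5:115348959-115349208 on the minus strand.
Cox5b: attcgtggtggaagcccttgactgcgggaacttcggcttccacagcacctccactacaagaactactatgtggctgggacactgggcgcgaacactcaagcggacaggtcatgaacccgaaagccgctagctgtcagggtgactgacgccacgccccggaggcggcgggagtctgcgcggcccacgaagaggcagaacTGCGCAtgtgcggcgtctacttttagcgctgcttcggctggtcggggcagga
Cox7b: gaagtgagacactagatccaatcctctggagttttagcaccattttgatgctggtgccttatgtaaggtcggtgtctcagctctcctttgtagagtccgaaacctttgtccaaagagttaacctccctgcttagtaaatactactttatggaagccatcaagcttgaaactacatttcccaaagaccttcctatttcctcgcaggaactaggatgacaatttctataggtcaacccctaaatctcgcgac
Cox6a1: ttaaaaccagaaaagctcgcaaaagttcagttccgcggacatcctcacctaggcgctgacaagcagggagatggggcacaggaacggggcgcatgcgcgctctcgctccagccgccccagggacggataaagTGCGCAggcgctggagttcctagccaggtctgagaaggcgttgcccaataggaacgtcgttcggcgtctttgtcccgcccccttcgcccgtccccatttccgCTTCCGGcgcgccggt
The Cox5b window held the NRF1 letters once, 52 bases before the start, the Cox6a1 window held both motifs, and the Cox7b window held neither. Over all windows of the nuclear members, 16.4% held the ETS letters and 20.5% the NRF1 letters, against 6.91% and 6.43% of all 32851 windows in the table. Each motif was counted on its own, also where matches overlap, and windows that share a symbol were counted separately. Among the 19 windows of members that rose in either overload comparison, 3 held the ETS letters and 4 the NRF1 letters. Among the 44 windows of members that were tested and called in no comparison, 7 held the ETS letters and 9 the NRF1 letters, so the shares were close in both sets. The TEAD letters GGAATG, the core of the site bound by the partners of YAP and TAZ, were present in 11.0% of member windows and 12.6% of all windows. Also searched were AAGATGG (YY1), AAGGTCA (a part of the ERR site) and CCAAT. These were present in 1.37%, 6.85% and 42.5% of member windows, against 4.49%, 4.08% and 33.8% of all windows. A match is a run of letters and not evidence of binding.

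The first question was how overload changed the nuclear subunits in progenitors with intact Yap1 and Taz. Nuclear members took up 0.359%, 0.476% and 0.349% of all counts in the control sham libraries and 0.507%, 0.813% and 0.713% in the control overload libraries. In cdKO the shares were 0.366%, 0.432% and 0.347% in sham and 0.597%, 0.528% and 0.704% under overload. Within each genotype no overload library overlapped a sham library. In every group the highest share belonged to the deepest library. These were sham 2 and overload 2 for control, and sham 2 and overload 3 for cdKO. Outside cdKO overload, the shares also ranked in the order of the library totals. In cdKO overload, library 1 (691150 counts) had a higher share than library 2 (795160 counts). Counts of calls with the library total as a term are given below.

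**Figure D1:**
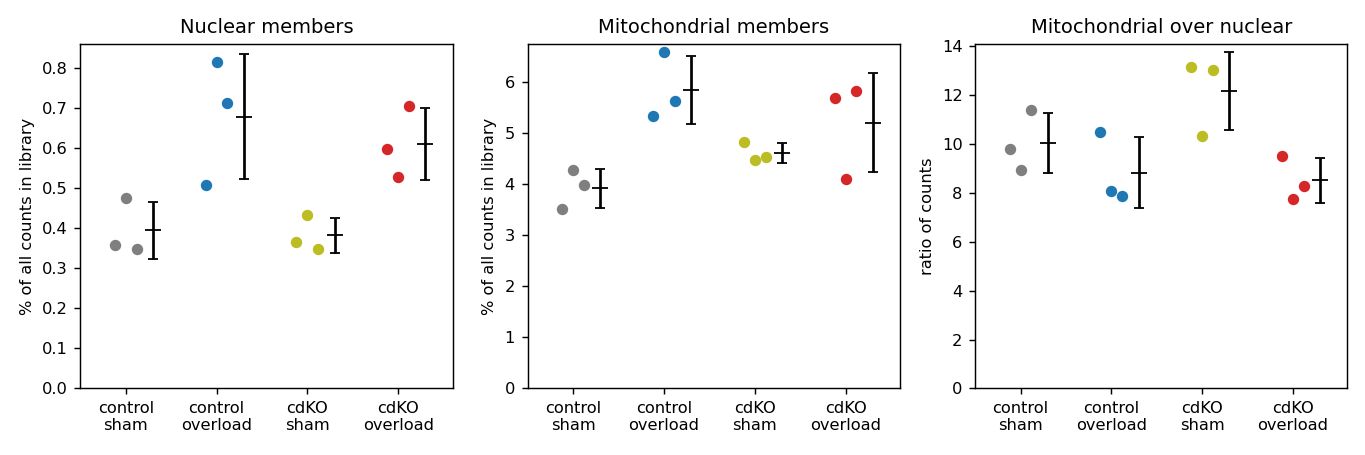
Share of all counts taken by the nuclear members (left) and by the mitochondrial protein-coding genes (middle), and the ratio of mitochondrial to nuclear counts (right), for 3 libraries a group as points, with the mean and SD as a bar beside them. Nuclear shares do not overlap between sham and overload in either genotype.

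In control progenitors 14 of the 71 tested nuclear members rose under overload and 0 fell. Over all genes tested, 10.6% were called higher and 11.0% lower. The fitted change was above 0 for 64 of the 71, with a median of 0.57 on the log2 scale against -0.05 over all genes. In 26 members every overload library lay above every sham library and in 0 every one lay below, against 20.2% and 16.9% of all genes.

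In cdKO progenitors 11 nuclear members rose and 1 fell, against 6.37% of all genes called higher and 6.68% lower. The fitted change was above 0 for 65 of 71, with a median of 0.60 against -0.02 over all genes. The groups did not overlap, with overload higher, in 31 members and, with overload lower, in 2, against 16.9% and 13.4% of all genes. The 2 overload comparisons use different libraries.

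Which members passed differed: 5 rose in both genotypes (Ndufa12, Uqcrq, Cox5b, Cox7b and Ndufa4), 12 were called in control only, 8 in cdKO only and 59 in neither. That a member passed in one genotype and not in the other is not a difference between them, and the test of the difference itself is given below.

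**Figure D2:**
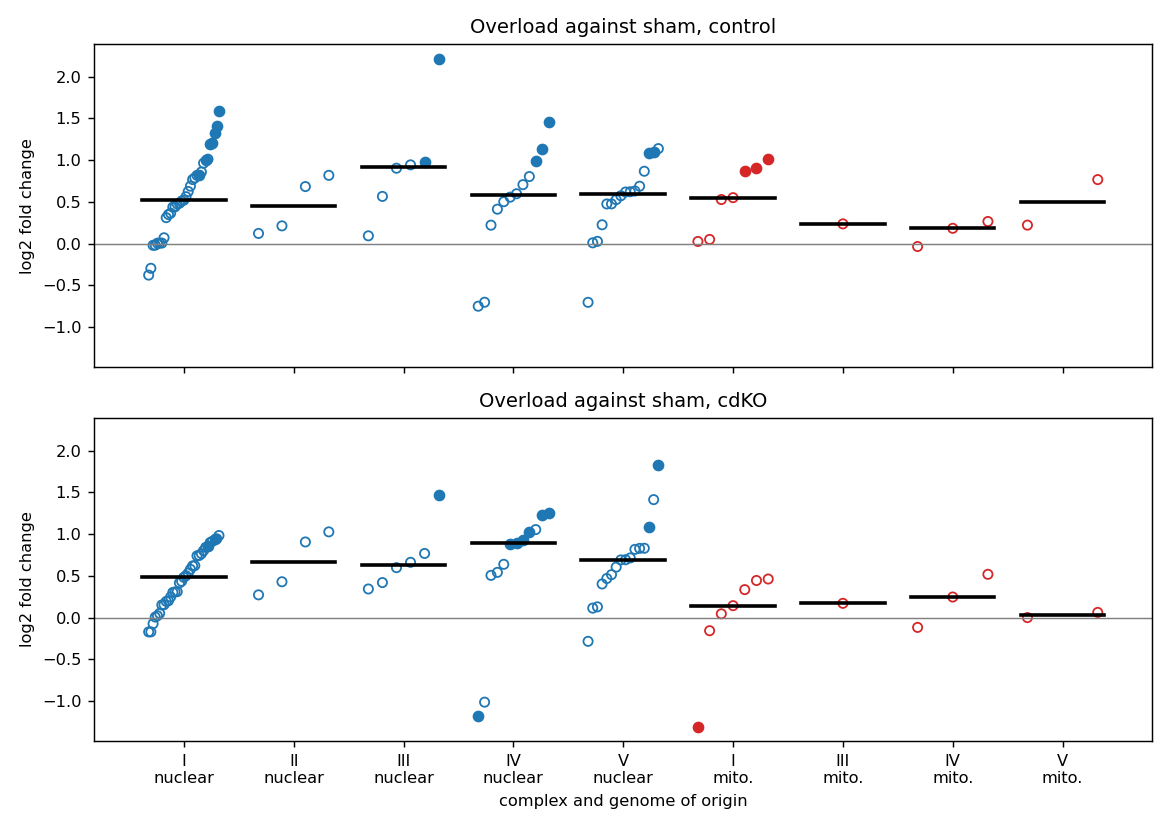
Log2 fold change of overload against sham for each of the 84 tested members, in control (top) and cdKO (bottom), by complex and genome of origin. Filled points passed adjusted p under 0.05, open points did not, and black lines are medians. Most nuclear points lie above 0 in both panels.

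By complex, the median log2 change of the tested nuclear members in control was 0.52 for complex I, 0.45 for complex II, 0.92 for complex III, 0.58 for complex IV and 0.60 for complex V. In cdKO it was 0.48 for complex I, 0.67 for complex II, 0.63 for complex III, 0.89 for complex IV and 0.69 for complex V. Each of these medians lay above the all-gene median of the same comparison.

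Complex I takes electrons from NADH. Of its 33 tested nuclear members, 7 rose in control and 2 in cdKO. These are 21.2% and 6.06%, against 10.6% and 6.37% of all genes called higher, so the cdKO share was near that of all genes. The summed CPM of all nuclear complex I members was 1.70 times as high in overload as in sham in control and 1.52 times in cdKO. The 5 tested nuclear core subunits, which hold the redox centres, gave 1 call in control, Ndufv2, and 0 in cdKO. The 28 tested accessory subunits gave 6 calls in control and 2 in cdKO.

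Ndufa12, an accessory subunit (chr10:94198720-94221443, plus strand, GRCm38), stood at 105, 116 and 83.2 CPM in control sham and 217, 356 and 281 CPM in control overload. In cdKO it stood at 99.6, 122 and 107 CPM in sham and 217, 182 and 210 CPM under overload. All overload libraries lay above all sham libraries, and the rise was 1.41 ± 0.24 (log2, SE; adjusted p = 0.000188) in control and 0.85 ± 0.24 (adjusted p = 0.0191) in cdKO.

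Ndufv2, a core subunit that carries an iron-sulphur cluster, stood at 31.3, 21.4 and 23.8 CPM in control sham and 66.1, 64.6 and 66.7 CPM in control overload. In cdKO it stood at 28.2, 40.2 and 39.3 CPM in sham and 49.2, 54.1 and 45.1 CPM under overload. Overload was higher in every library of both genotypes, but only the control rise passed the test (1.32 ± 0.29, adjusted p = 0.00199), with 0.42 ± 0.27 (adjusted p = 0.345) in cdKO.

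Ndufb7, an accessory subunit of the membrane arm, gave the highest fitted change of complex I in control. It stood at 6.70, 10.1 and 11.9 CPM in control sham and 23.7, 23.6 and 43.7 CPM in control overload, and the cdKO libraries at 13.3, 18.6 and 16.1 CPM in sham and 11.6, 20.1 and 17.8 CPM under overload. The control rise was 1.59 ± 0.44 (adjusted p = 0.0111), while in cdKO the groups overlapped at 0.01 ± 0.41. Counts were low, between 3 and 38 a library.

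Of the other complex I members that rose in control, Ndufa8 changed by 1.20, Ndufs6 by 1.21, Ndufc2 by 1.0 and Ndufa10 by 0.82 on the log2 scale. Their cdKO values were 0.94, 0.91, 0.80 and 0.62, none of which passed. Ndufc1 rose in cdKO (0.94 ± 0.30, adjusted p = 0.0391) and was at 0.44 in control. At the low end, Ndufa6 was at -0.38 in control and Ndufv1 at -0.17 in cdKO, neither past the threshold.

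Complex II, succinate dehydrogenase, also works in the citrate cycle. None of its 4 subunits passed in either genotype, and the fitted changes of all 4 were above 0 in both. Sdhc was nearest, at 44.7, 41.6 and 53.5 CPM in control sham and 32.2, 63.9 and 66.7 CPM in control overload, and in cdKO at 24.9, 36.3 and 19.6 CPM in sham and 49.2, 51.6 and 58.8 CPM under overload. Its cdKO libraries did not overlap (0.91 ± 0.32, adjusted p = 0.0591). Sdhd had the highest fitted change, 0.82 in control and 1.03 in cdKO, on few counts, and Sdha, the flavoprotein, the lowest, 0.12 and 0.27. The summed CPM ratio was 1.27 in control and 1.46 in cdKO.

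Complex III passes electrons from ubiquinol to cytochrome c. Uqcrq, one of its small subunits (chr11:53427922-53430831, minus strand), gave the highest fitted change of all members in control, at 29.0, 52.9 and 38.6 CPM in sham and 173, 233 and 200 CPM under overload. In cdKO it stood at 44.8, 72.6 and 53.6 CPM in sham and 149, 106 and 234 CPM under overload. Every overload library exceeded every sham library, with a rise of 2.22 ± 0.32 (adjusted p = 1.97e-05) in control and 1.47 ± 0.29 (adjusted p = 0.00167) in cdKO.

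Uqcrfs1, the Rieske iron-sulphur protein, rose in control (0.98 ± 0.30, adjusted p = 0.0203), from 75.9, 73.1 and 44.6 CPM to 86.4, 168 and 146 CPM. In cdKO it stood at 59.8, 91.2 and 51.8 CPM in sham and 98.4, 81.7 and 138 CPM under overload, where the groups overlapped. Uqcrh, the hinge protein, had the lowest fitted change of complex III, 0.09 in control and 0.34 in cdKO. The summed CPM ratio of nuclear complex III was 1.97 in control and 1.69 in cdKO.

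Complex IV, cytochrome c oxidase, reduces oxygen. Of its 12 tested nuclear members, 3 rose in control and 0 fell, whereas 6 rose and 1 fell in cdKO. Calls in either direction were 25.0% of the 12 in control and 58.3% in cdKO. Over all genes 10.6% were called higher and 11.0% lower in control, and 6.37% and 6.68% in cdKO. The 10 tested ubiquitous structural subunits were all fitted above 0 in both genotypes, with medians of 0.65 in control and 0.91 in cdKO. That list leaves out Ndufa4l2 and Cox7a2l, the 2 of the 12 that were fitted below 0 in both genotypes. The summed CPM ratio was 1.66 in control and 1.74 in cdKO.

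Cox7b, a small subunit (chrX:106015700-106022450, plus strand), stood at 55.8, 60.5 and 53.5 CPM in control sham and 120, 173 and 196 CPM in control overload. In cdKO it stood at 64.7, 53.9 and 41.1 CPM in sham and 178, 76.7 and 130 CPM under overload. No overload library overlapped sham, and the rise was 1.46 ± 0.30 (adjusted p = 0.00106) in control and 1.23 ± 0.29 (adjusted p = 0.00707) in cdKO.

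Cox5b (chr1:36691449-36693681, plus strand), whose promoter window is printed above, stood at 31.3, 57.9 and 14.9 CPM in control sham and 79.6, 92.7 and 88.6 CPM in control overload. Its cdKO libraries held 23.2, 34.3 and 25.0 CPM in sham and 55.0, 56.6 and 92.4 CPM under overload. It rose in both (1.13 ± 0.34, adjusted p = 0.0166 in control, and 1.25 ± 0.34, adjusted p = 0.0166 in cdKO), without overlap.

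Ndufa4, once counted with complex I, stood at 33.5, 52.9 and 35.7 CPM in control sham and 45.7, 113 and 97.8 CPM in control overload. Its cdKO libraries held 38.2, 48.0 and 37.5 CPM in sham and 73.8, 94.3 and 75.6 CPM under overload. It rose in control (0.99 ± 0.31, adjusted p = 0.0244), where control overload 1 lay within the sham range, and in cdKO (0.92 ± 0.31, adjusted p = 0.0454), without overlap.

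Ndufa4l2, a paralogue of Ndufa4 known as a hypoxia-induced gene, moved the other way. It stood at 17.9, 25.2 and 26.8 CPM in control sham and 18.6, 10.9 and 17.3 CPM in control overload, and in cdKO at 29.9, 36.3 and 30.4 CPM in sham and 7.23, 20.1 and 15.7 CPM under overload. It fell in cdKO (-1.18 ± 0.38, adjusted p = 0.0424), with no overlap, and was at -0.70 ± 0.41 (adjusted p = 0.228) in control, on between 5 and 37 counts a library. Hif1a, a hypoxia-response factor, rose in both genotypes, 2.01 in control and 1.68 in cdKO.

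**Figure D3:**
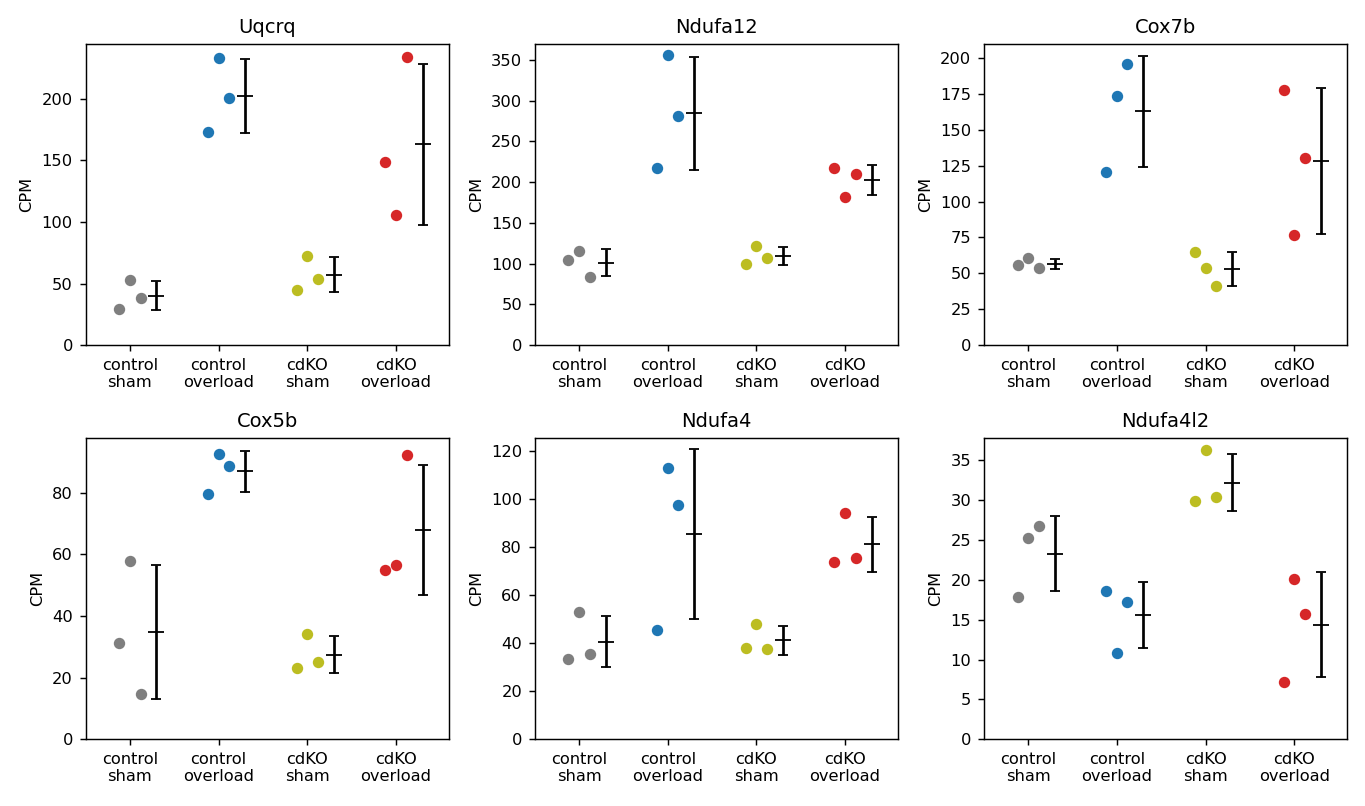
CPM in each library of the 5 members that rose under overload in both genotypes and of Ndufa4l2, which fell in cdKO; points are libraries and the bar beside them is the mean and SD of 3. Each axis starts at 0 and has its own scale.

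A further 3 complex IV subunits passed in cdKO and not in control, Cox6a1 (1.02 ± 0.27, adjusted p = 0.0148), Cox6b1 (0.90 ± 0.30, adjusted p = 0.0451) and Cox7a2 (0.88 ± 0.29, adjusted p = 0.0420). Their control values were 0.56, 0.71 and 0.50. Cox7a2l, which is known for its part in assembling supercomplexes, had the lowest fitted change in control (-0.75, adjusted p = 0.194), and in cdKO it lay lower in every overload library, at 14.5, 22.6 and 21.0 CPM against 24.9, 61.8 and 25.0 CPM in sham (-1.01, adjusted p = 0.0809). Cox4i1, the general form of subunit 4, was at 0.22 in control and 0.54 in cdKO, neither past the threshold.

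Several complex IV subunits have forms used mainly in striated muscle, in testis or under low oxygen. Cox6a2, Cox7a1 and Cox8b, the heart and muscle forms, had 6, 3 and 3 counts over all 12 libraries, and Cox4i2 had 4. Their general partners had 1543 (Cox6a1), 435 (Cox7a2), 627 (Cox8a) and 973 (Cox4i1). Cox8c had 0 counts in every library, which allows up to between 1.92 and 8.92 CPM by library, and Cox6b2 and Cox7b2 had 8 and 3. Of the 19 myofibre markers, Acta1 reached at most 6.70 CPM and Ckm 4.47 CPM. The list as a whole summed to between 17.9 and 173 CPM by library, and 3 of its genes passed the filter on low counts.

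Complex V is ATP synthase. Of its 16 tested nuclear members 2 rose in control, Atp5g3 (1.09 ± 0.31, adjusted p = 0.0142) and Atp5o (1.10 ± 0.31, adjusted p = 0.0116), and 2 in cdKO, Atp5pb (1.08 ± 0.29, adjusted p = 0.0148) and Atp5md (1.83 ± 0.47, adjusted p = 0.0117). The calls are 12.5% of the 16 in each genotype, against 10.6% of all genes called higher in control and 6.37% in cdKO. Atp5g3 encodes the rotating c ring, Atp5o and Atp5pb the peripheral stalk, and Atp5md a small membrane subunit. The 5 catalytic head and central stalk genes gave 0 calls in either genotype, with fitted changes between 0.53 and 0.69 in control and between 0.11 and 0.71 in cdKO.

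Atp5g3 stood at 286, 474 and 404 CPM in control sham and 579, 1196 and 831 CPM in control overload, and in cdKO at 450, 327 and 345 CPM in sham and 681, 407 and 925 CPM under overload. Control groups did not overlap, and the cdKO groups did, since cdKO overload 2 lay within the sham range. The 3 c-ring genes encode the same mature protein, and their reads may be hard to assign. Atp5md stood at 13.4, 18.9 and 8.92 CPM in control sham and 16.9, 45.4 and 35.7 CPM in control overload, and in cdKO at 3.32, 11.8 and 8.93 CPM in sham and 43.4, 32.7 and 18.9 CPM under overload. Its control groups overlapped and its cdKO groups did not. Atp5l, at -0.70 in control and -0.29 in cdKO, had the lowest fitted change of the complex. The summed CPM ratio was 1.75 in control and 1.60 in cdKO.

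Calls were more frequent among members at higher levels. Level was the mean CPM over all 12 libraries, overload included, so a rise itself lifts the level of a member. The part of level in the calls was not tested. Of the 36 nuclear members at or above the median level of 42.5 CPM, 12 rose in control and 9 in cdKO. Of the 35 below it, 2 rose in each. The median fitted change was 0.59 above and 0.57 below in control, and 0.70 and 0.47 in cdKO, while the median SE was 0.30 above and 0.38 below in control.

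The 13 mitochondrial genes make up the core of complexes I, III, IV and V. Together they took up 3.51%, 4.27% and 3.98% of counts in control sham and 5.32%, 6.58% and 5.61% in control overload. In cdKO they took up 4.82%, 4.47% and 4.52% in sham and 5.68%, 4.09% and 5.82% under overload. Control overload lay above control sham in every library, while the cdKO groups overlapped through cdKO overload 2. In control, 3 rose (23.1%, against 10.6% of all genes called higher) and 0 fell, with a median change of 0.27. In cdKO, 0 rose and 1 fell (7.69%, against 6.68% of all genes called lower), with a median of 0.14. The control calls were all complex I genes, and the summed CPM of the 7 mitochondrial complex I genes was 1.60 times as high under overload in control and 1.12 times in cdKO.

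mt-Nd5, a proton-pumping subunit (chrM:11742-13565, plus strand), stood at 3047, 3106 and 3469 CPM in control sham and 6374, 7568 and 6390 CPM in control overload. Its cdKO libraries held 4719, 4971 and 4333 CPM in sham and 6326, 3773 and 5700 CPM under overload. It rose in control (1.01 ± 0.26, adjusted p = 0.00674), with no overlap, and overlapped in cdKO (0.14 ± 0.26, adjusted p = 0.789).

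mt-Nd1 stood at 4461, 3954 and 4072 CPM in control sham and 5442, 10869 and 8099 CPM in control overload, and rose by 0.91 ± 0.27 (adjusted p = 0.0175). Its cdKO value was 0.44 ± 0.27 (adjusted p = 0.302), again with overload above sham in every library. mt-Nd6, the one protein gene on the light strand, rose in control by 0.88 ± 0.31 (adjusted p = 0.0446), from 4510, 7551 and 7220 CPM to 13083, 11032 and 13131 CPM, and was at 0.33 ± 0.31 in cdKO. mt-Nd5 and mt-Nd6 overlap by 14 bases on opposite strands, and whether the counting used strand is not given in the sources used here. Reads of the 2 strands therefore cannot be told apart, in the overlap or elsewhere along mt-Nd6. The mt-Nd6 rise cannot be taken as separate from that of mt-Nd5.

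mt-Nd4l (chrM:9877-10173, plus strand) was the one mitochondrial member that fell. It stood at 114, 76.8 and 169 CPM in control sham and 188, 88.2 and 104 CPM in control overload, and in cdKO at 287, 339 and 136 CPM in sham and 110, 106 and 102 CPM under overload. The cdKO fall was -1.31 ± 0.33 (adjusted p = 0.0130), without overlap, against 0.03 ± 0.35 in control. mt-Nd4l overlaps mt-Nd4 by 7 bases, and mt-Nd4 itself was at -0.16 in cdKO (adjusted p = 0.762).

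The genes of complexes III, IV and V gave no call in either genotype. mt-Cytb was at 0.24 in control and 0.17 in cdKO, mt-Co1 at 0.18 and -0.12, mt-Co2 at 0.27 and 0.25, mt-Co3 at -0.03 and 0.52, mt-Atp6 at 0.22 and 0.00, and mt-Atp8 at 0.77 and 0.06. Of the remaining complex I genes, mt-Nd2 was at 0.53 and 0.04 and mt-Nd3 at 0.55 and 0.46.

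**Figure D4:**
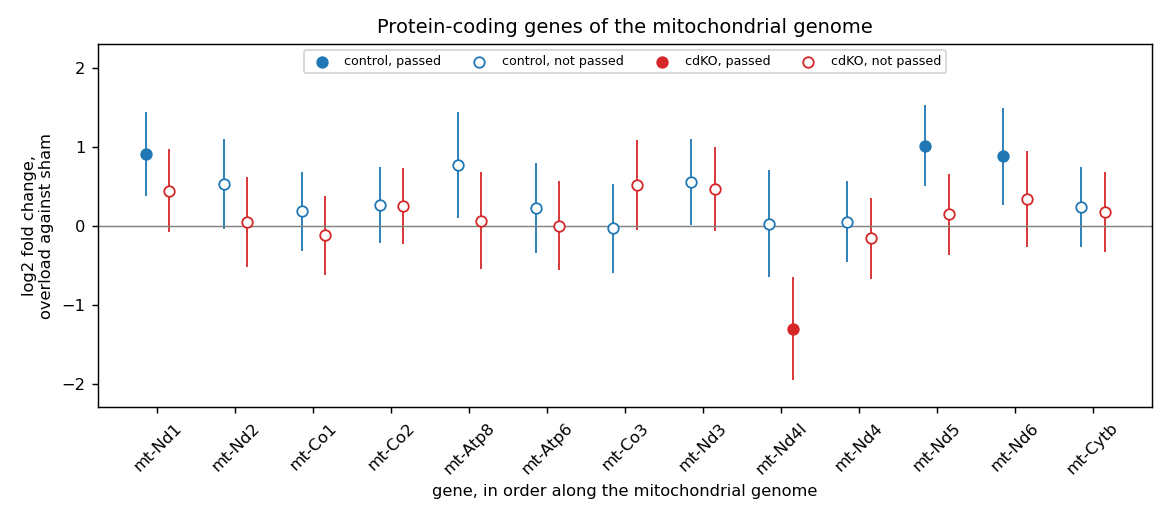
Log2 fold change of overload against sham for the 13 protein-coding genes of the mitochondrial genome, in order along it, in control (blue) and cdKO (red), with 95% intervals. Filled points passed adjusted p under 0.05: mt-Nd1, mt-Nd5 and mt-Nd6 in control and mt-Nd4l in cdKO.

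The mitochondrial to nuclear ratio of member counts was 10.05 ± 1.24 in sham and 8.82 ± 1.45 under overload in control, and 12.2 ± 1.59 and 8.52 ± 0.905 in cdKO (SD, n = 3). In cdKO the overload libraries (7.76 to 9.52) lay below all sham libraries (10.3 to 13.2), and in control the ranges overlapped. The ribosomal RNA of the mitochondrion, which the members do not include, took up 4.72% ± 1.28 of counts in control sham and 4.42% ± 1.14 in control overload (SD, n = 3). In cdKO it took up 7.84% ± 1.43 in sham and 4.20% ± 0.357 under overload. The cdKO sham libraries (6.92% to 9.49%) lay above every control sham library and every overload library, and mt-Rnr1 fell in cdKO (-1.70 ± 0.50, adjusted p = 0.0381).

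The second question was whether loss of Yap1 and Taz changed these genes. Of the 84 members, 0 differed between cdKO and control in sham muscle by edgeR and 0 by DESeq2, against 0.0123% of all genes called. At an unadjusted edgeR p under 0.05 there were 3 members, against 334 of the 8161 genes. Under overload 0 differed by edgeR and 0 by DESeq2, against 0.0368% of all genes. There 1 member had an unadjusted edgeR p under 0.05, against 569 of the 8161 genes. The groups did not overlap in 7 members in sham and 6 under overload, against 9.67% and 11.2% of all genes. The median difference was 0.01 in sham and -0.07 under overload for nuclear members, and 0.21 and -0.03 for mitochondrial members. Over the alternative fits the nuclear median ran from -0.19 to 0.21 in sham and from -0.30 to 0.30 under overload. The mitochondrial median ran from 0.13 to 0.32 in sham and from -0.23 to 0.15 under overload. The 95% interval lay within 1 log2 unit either way for 39 of 71 nuclear members in sham and 58 of 71 under overload. The same held for 9 and 13 of the 13 mitochondrial members. For the others the interval did not exclude a difference of that size.

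The test of whether overload acted differently in the 2 genotypes called 0 members by edgeR and 0 by DESeq2, against 0% of all genes. At an unadjusted edgeR p under 0.05 there were 4 of the 84 members and 427 of the 8161 genes, so the shares were close. Those 4 were mt-Nd4l (-1.33 ± 0.48), Ndufb7 (-1.58 ± 0.61), mt-Nd5 (-0.87 ± 0.37) and Ndufv2 (-0.91 ± 0.40), each with a lower overload change in cdKO and with edgeR adjusted p between 0.882 and 0.927. The median SE of this difference was 0.47 for nuclear and 0.39 for mitochondrial members.

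Lists of other mitochondrial genes were read beside the members. In control, 14 of 55 mitochondrial ribosomal proteins rose, as did 8 of 21 import and chaperone genes, 4 of 7 carriers and outer membrane channels and 3 of 16 citrate cycle genes, and none of these fell. These are 25.5%, 38.1%, 57.1% and 18.8%, against 10.6% of all genes called higher. In cdKO the same lists gave 3, 3, 1 and 2 genes that rose. That is 5.45%, 14.3%, 14.3% and 12.5%, against 6.37% of all genes, so the ribosomal protein share lay below it. The median changes of the lists, in the same order, were 0.89, 0.93, 0.79 and 0.53 in control. In cdKO they were 0.48, 0.73, 0.46 and 0.40, against all-gene medians of -0.05 in control and -0.02 in cdKO. Mrpl17 (1.57 in control, 1.20 in cdKO), Hspe1, the co-chaperonin (1.5 and 1.54), Slc25a5, an ADP/ATP carrier (1.08 and 1.04), and Mdh2, malate dehydrogenase (1.32 and 1.23), rose in both.

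Of 8 assembly factors of complex I, 0 rose in control and 1 (Ndufaf4) in cdKO, and of 18 for complexes II to V 2 rose in each. The 2 of 18 are 11.1%, against 10.6% of all genes called higher in control and 6.37% in cdKO. Cox17, a copper chaperone, rose in both, with Cox18 in control and Uqcc2 in cdKO. The 7 tested genes of mitochondrial DNA copying and transcription and the 11 of RNA handling gave 0 calls in either, with medians of 0.02 and 0.28 in control and 0.08 and 0.33 in cdKO. Of subunits and carriers outside the symbol rule, Cyc1, the haem subunit of complex III, rose in control (1.40 ± 0.38, adjusted p = 0.0105), as did Ndufab1, and Cyc1 was at 1.14 in cdKO (adjusted p = 0.0505). Among 9 transcriptional regulators, Hif1a rose and Myc and Nrip1 fell in control, and Hif1a and Gabpb1, a GABP subunit, rose in cdKO.

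**Figure D5:**
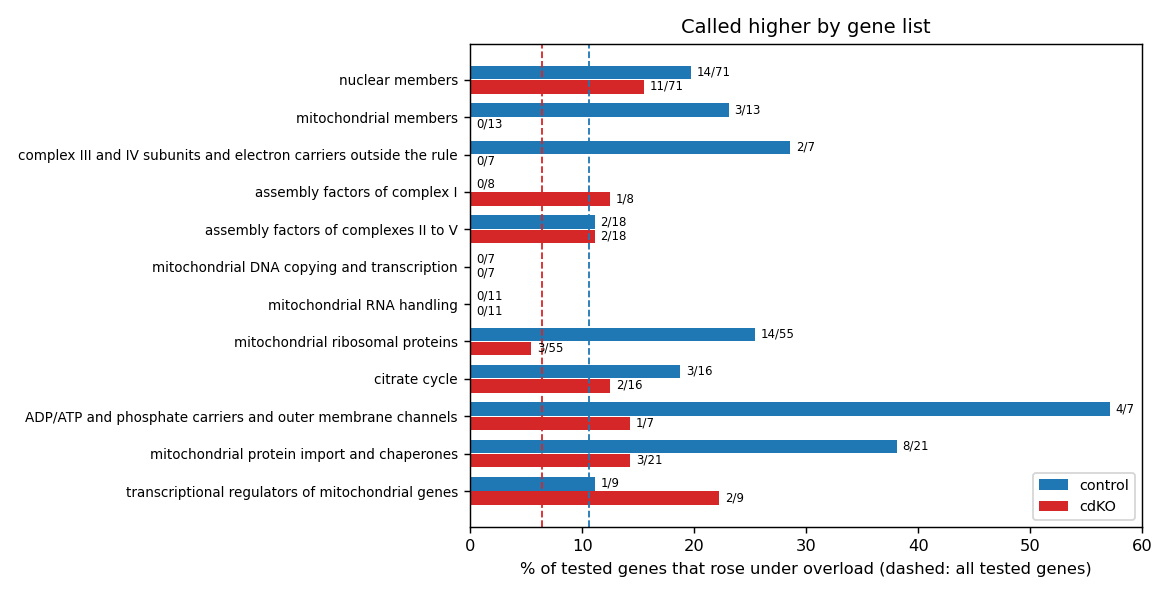
Percentage of the tested genes of each list that rose under overload, in control (blue) and cdKO (red), with the counts beside each bar; dashed lines show all tested genes (10.6% and 6.37%). The nuclear members gave 14 and 11 of 71.

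Several measures moved with overload alongside the members. The summed CPM of 19 myofibre markers averaged 129 in control sham and 66.4 in control overload (range over all libraries 17.9 to 173), that of 10 endothelial markers 195 and 77.5, that of 10 pericyte and smooth muscle markers 523 and 273, and that of 6 Schwann cell markers 411 and 217. In cdKO the pericyte and smooth muscle sum averaged 511 in sham and 365 under overload. The summed CPM of 8 myoblast and muscle stem cell markers was higher under overload, at 65.4 to 78.2 against 99.1 to 129 in control and 64.3 to 75.5 against 108 to 122 in cdKO, with Vcam1 at 17.8 to 31.5 CPM in sham and 47.8 to 91.2 CPM under overload, and Myod1 at 0 to 1.69 CPM. Of the 3 of these that were tested, Vcam1 and Msc rose and Des fell (-1.35, adjusted p = 0.0448) in control, and in cdKO Vcam1 rose and Des was at -0.75 (adjusted p = 0.288). The 12 leukocyte markers ranged from 8.31 to 59.1 and the 5 erythroid markers from 0 to 276. The erythroid sum averaged 2.33 in control sham and 112 in control overload, and 77.8 in cdKO sham and 0.350 in cdKO overload. It thus moved in opposite directions in the 2 genotypes. Y-linked genes summed to 63.9 and 67.9 CPM in control overload 2 and 3 and to 111 to 253 in the other libraries. The part of these in the member results was not tested beyond the fits with a Y-linked term.

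The number of nuclear calls rested on single libraries. Without control overload 2 it was 6 in control, without control sham 1 it was 6, without control overload 3 it was 8, without control sham 3 it was 9, and without control overload 1 it was 26. In cdKO it was 3 without cdKO overload 3, 3 without cdKO sham 3, 4 without cdKO sham 1, 5 without cdKO overload 1, and 7 without control overload 3 or control sham 3, against 12 in either direction with all libraries. With a Y-linked term the nuclear count was 2 in control and 19 in cdKO, and with voom quality weights it was 19 in cdKO. With the library total as a term, added after the data were seen, the nuclear count in control was 6, of which 5 were among the 14 and 1 was newly called lower, and the mitochondrial count was 0. The mitochondrial count in control was 1 without control sham 1, 2 or 3 or without control overload 2, and in cdKO mt-Nd4l lost its call without cdKO sham 2 or cdKO overload 3. Uqcrq in both genotypes, and Ndufa12, Ndufv2, Cox7b and mt-Nd5 in control, passed with every one of the 12 libraries left out in turn.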

How the data were processed

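RNA from sorted progenitors was sequenced in 12 libraries. Tools named, per the submitters' processing notes, were HISAT2 2.2.1, Trim Galore 0.6.6, DESeq2 1.26.0 and featureCounts 2.0.1, and the build was GRCm38. The strand setting, the annotation release and any use of molecular identifiers are not stated there. The deposited values are raw counts per gene, whole numbers with a different total in each library. All 54100 identifiers matched GENCODE vM21, the source of coordinates.

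Genes were filtered (filterByExpr), scaled by TMM and fitted with 1 mean per group in edgeR 4.0.16 (R 4.3.3), with robust quasi-likelihood tests. SE was taken as the absolute log2 change over the root of the F statistic. A check on simulated data was run first. Named genes were members past the threshold, the highest and lowest of each complex, all mitochondrial genes, isoform pairs, up to 4 called genes of each other list, and Yap1, Wwtr1 and Pdgfra. The members and lists were chosen with earlier results of these data known. Alternatives used DESeq2 1.42.0, limma 3.58.1 (voom), other scalings, filters and terms, and left-out libraries. Floors cover counting error only, whereas SEs and 95% intervals come from the fit and include the spread between libraries.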

Additional observations from a re-analysis of the deposited data

Results flagged for a closer look

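In 2 of the 84 tested members all cdKO CPM values lay on one side of control in sham and on the other under overload. The members were searched for this pattern, and it was not counted over all genes, so no share stands beside it. mt-Nd5 was higher in cdKO in sham (0.57 ± 0.26) and lower under overload (-0.30 ± 0.26), a difference between loads of -0.87 (edgeR, adjusted p = 0.925). Ndufb7 did the same, with a difference of -1.58 (edgeR, adjusted p = 0.885). Neither difference passed the test. For mt-Nd5 the nearest overload libraries were cdKO overload 1 (6326 CPM) and control overload 1 (6374 CPM). These CPM values leave out the TMM factors (0.987 and 1.05), which would reverse the order of those 2 libraries.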

How the results depend on the processing

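No member called under overload changed sign under any alternative. The median overload change of nuclear members ran from 0.22 to 0.89 in control and from 0.48 to 0.75 in cdKO over the alternatives. For mitochondrial members it ran from 0.21 to 0.51 in control and from -0.01 to 0.33 in cdKO. Nuclear calls in control were 14 and moved to 2 with a Y-linked term, 6 with a library total term (5 of the 14 and 1 newly called lower), 26 without control overload 1 and cdKO overload 2 together, and 5 without control overload 2 and control sham 3 together. Nuclear calls in cdKO were 12 and moved to 19 with voom quality weights, with a Y-linked term, and without control overload 1 and cdKO overload 2 together, and to 7 with no filter. Mitochondrial calls in control were 3 and moved to 1 with a Y-linked term, 0 with a library total term and 0 without control overload 2 and control sham 3 together. The cause was not tested. The library total term and the pair control overload 1 with cdKO overload 2 were added after seeing the data. With one library left out in turn, the counts ranged from 6 to 26 (nuclear, control), 3 to 16 (nuclear, cdKO), 1 to 3 (mitochondrial, control) and 0 to 1 (mitochondrial, cdKO). Replicate numbers gave no clear pairing of the libraries. Of same-number correlations 6 of 18 exceeded 0.1, against 9 of 36 between different numbers, with medians of 0.02 and -0.02. Of the 12 libraries, 4 correlated best with their own number. With 3 libraries a group these values cannot show that no libraries were paired. With a replicate block the nuclear counts were 14 in control and 12 in cdKO, and the mitochondrial counts 2 and 1. The genotype comparisons and the interaction gave 0 calls under every alternative run. A fit of only the groups compared could not be made for the interaction. Scalings shifted the all-gene median by less than 0.1. Members at a few counts, such as Ndufb7 and Ndufa4l2, are limited by depth.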
